A study of Mus musculus with 6 samples.

Results

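Of the 23357 accessible regions that the deposited peak table of muscle stem cells (MuSCs) annotates to a protein-coding gene, 628 were lost after deletion of Taf4a. These lost peaks were chosen by their measured values: the mean over the 6 libraries had to be above 10, and log2 of the Taf4a sKO mean plus 1 over the control mean plus 1 had to be below -1. They are annotated to 575 genes. Annotation was to the nearest gene with a start site within about 10000 bp, so peaks farther from genes are outside this set. The table holds 75412 peaks in all, of which 4039 pass the same limits whatever their annotation. ATAC-seq was performed on freshly isolated MuSCs of adult mice on a C57BL/6 background, with 3 control and 3 Taf4a sKO libraries. Taf4a sKO mice carried Taf4a flox/flox alleles, in which exons are flanked by loxP sites, together with Pax7CREERT, a tamoxifen-inducible recombinase active in Pax7-expressing cells, and received tamoxifen. The sample labels name the control libraries WT. The study describes its control mice as littermates that also carried the floxed alleles, with or without the recombinase allele. It also lists wild-type C57BL/6 mice, and the labels do not say which of these the WT libraries came from. The study describes control mice after tamoxifen in another experiment, and whether the controls of these libraries received it is not given in the sources used here. Some animals of either genotype may have carried a Pax7-zsGreen reporter. The sources used here do not say which control library came from which of these genotypes, nor the age or sex of the animals behind a library. Summed over all peaks, the normalized values came to 37722015, 35226223 and 42803315 in the control libraries and to 44311913, 41661725 and 41948821 in the Taf4a sKO libraries.

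In ATAC-seq the transposase Tn5 cuts and tags DNA that is not wrapped tightly in nucleosomes, so the number of tagged fragments over a region reports how open it is. Open regions at start sites are promoters, while open regions farther away include enhancers, which are bound by cell type-specific factors. MuSCs are the Pax7-positive, normally quiescent stem cells of skeletal muscle, and myogenic factors such as MYOD1 and MYF5 bind E-boxes in their chromatin. TAF4A is a subunit of TFIID, the complex that recognises core promoters and recruits RNA polymerase II. The annotation assigns a peak to a nearby gene, which says where the peak lies and not which gene it acts on.

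The central 200 bases of 7 lost peaks are given here because these peaks had the lowest ratios or the highest control values among those that touch no annotated UTR. They were read from the plus strand of the RefSeq GRCm38 (mm10) sequence. Capitals mark matches on either strand to CAGCTG (the E-box form preferred by myogenic factors), TGANTCA (AP-1), GGAATG (TEAD), TGTGGT (Runx), CCGGAAG (Ets) or GGGCGG (GC box). No capital base belongs to more than 1 match.
Smyd4, chr11:75352534-75352733: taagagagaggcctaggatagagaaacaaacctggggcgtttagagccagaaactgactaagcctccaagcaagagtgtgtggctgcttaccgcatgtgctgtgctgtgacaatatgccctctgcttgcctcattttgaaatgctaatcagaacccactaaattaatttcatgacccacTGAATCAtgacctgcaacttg
Krtap1-3, chr11:99591067-99591266: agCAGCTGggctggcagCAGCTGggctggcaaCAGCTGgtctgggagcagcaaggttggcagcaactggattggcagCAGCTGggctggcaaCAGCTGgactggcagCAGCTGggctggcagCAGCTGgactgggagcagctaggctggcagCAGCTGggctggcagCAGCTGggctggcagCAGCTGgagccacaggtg
Rab6b, chr9:103108740-103108939: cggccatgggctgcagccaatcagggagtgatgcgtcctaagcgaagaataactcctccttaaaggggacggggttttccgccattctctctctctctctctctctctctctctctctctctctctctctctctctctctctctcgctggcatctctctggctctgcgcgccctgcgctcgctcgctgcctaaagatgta
Aadacl4fm5, chr4:144790268-144790467: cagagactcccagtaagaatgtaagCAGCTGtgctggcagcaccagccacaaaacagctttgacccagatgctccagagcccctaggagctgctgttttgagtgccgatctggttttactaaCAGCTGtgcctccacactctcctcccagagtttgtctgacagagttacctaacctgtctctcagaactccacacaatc
Gm28710, chr5:16795115-16795314: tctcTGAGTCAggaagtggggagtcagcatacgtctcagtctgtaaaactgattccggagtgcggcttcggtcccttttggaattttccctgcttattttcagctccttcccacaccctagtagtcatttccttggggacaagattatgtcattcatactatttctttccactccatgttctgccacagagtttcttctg
Galr3, chr15:79044991-79045190: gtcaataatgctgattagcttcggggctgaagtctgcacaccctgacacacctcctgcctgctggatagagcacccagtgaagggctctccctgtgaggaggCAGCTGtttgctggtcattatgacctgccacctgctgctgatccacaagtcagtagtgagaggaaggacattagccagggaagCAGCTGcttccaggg
Isx, chr8:74870623-74870822: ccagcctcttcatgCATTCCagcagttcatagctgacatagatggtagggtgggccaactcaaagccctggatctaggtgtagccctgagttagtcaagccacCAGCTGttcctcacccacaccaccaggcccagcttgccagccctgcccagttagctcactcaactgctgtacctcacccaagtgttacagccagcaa
The first 5 of these belong to the peaks of lowest ratio, and the last 2 to peaks of high control value. The Krtap1-3 sequence lies in a coding exon and repeats CAGCTG 10 times in a tandem array. The Rab6b sequence holds a long CT repeat and no match to the 6 motifs.

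Some libraries stood apart at single peaks, and these come first because a few lost peaks rest on them. Control 3 was more than 4 times lower than both other controls at 20 peaks of the whole table, where those reached at least 40, and 9 of the 20 lie on chromosome 4 between 144765705 and 149437968. At 6 of these 9 the control 3 value did not exceed the highest Taf4a sKO value, while controls 1 and 2 were above every Taf4a sKO value at all 9. Control 3 was also more than 4 times higher than both other controls at 19 peaks, again with 9 on chromosome 4. Taf4a sKO 3 was more than 4 times lower than both others of its genotype at 16 peaks, 6 of them on chromosome 4, and 4 of these lie between 141069768 and 141461855. The Pax7 gene, whose locus carries the recombinase, lies on the same chromosome between 139737062 and 139833528. What these libraries share there was not tested.

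Among the lost peaks, 9 show such a library. Control 3 was low at Rab6b and Aadacl4fm5 and high at Angptl7 and Tacr1. Taf4a sKO 3 was low at Necap2, Cplane2 and Srarp and high at Lrp2bp and Fgl1. The Angptl7 peak had values of 3, 8 and 94 in the controls and 11, 10 and 8 in Taf4a sKO MuSCs, so that control 3 alone put it among the lost peaks. Without these 9 peaks, 619 lost peaks remain.

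The rule called 2.69% of the 23353 coding peaks with a mean above 10 and 4.04% of the 14219 protein-coding genes that have such a peak. A further 2 coding peaks passed the ratio but not the minimum mean, and 39 of the 628 had a Taf4a sKO mean of 10 or less. The median ratio was -1.32 on the log2 scale, with quartiles of -1.68 and -1.13, and the median fold between group means was 2.55. Most lost peaks lay close to the limit, with 398 between -1.5 and -1, 147 between -2 and -1.5, 65 between -3 and -2 and 18 below -3. The peaks at Cox8b (-1.0056), Diras1 (-1.0051) and Ahcy (-1.0049) were just inside the limit, and those at Egr4, Tmem255a and Kctd6 were just outside, at exactly -1.

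The lost peaks were weak before they were lost. Their median control value was 110.5, with a range from 15.3 to 1858, against 529 for all coding peaks, and only 11 exceeded 1000. When coding peaks were ranked by the control mean and cut into 4 equal groups, 397 of the 628 belonged to the weakest group, 195 to the second, 34 to the third and 2 to the strongest. They were also narrow, with a median width of 374 bp against 871 bp. Values are not divided by width. A lower value can come from fewer cells with an open site or from less opening per cell, which bulk libraries cannot tell apart.

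**Figure D1:**
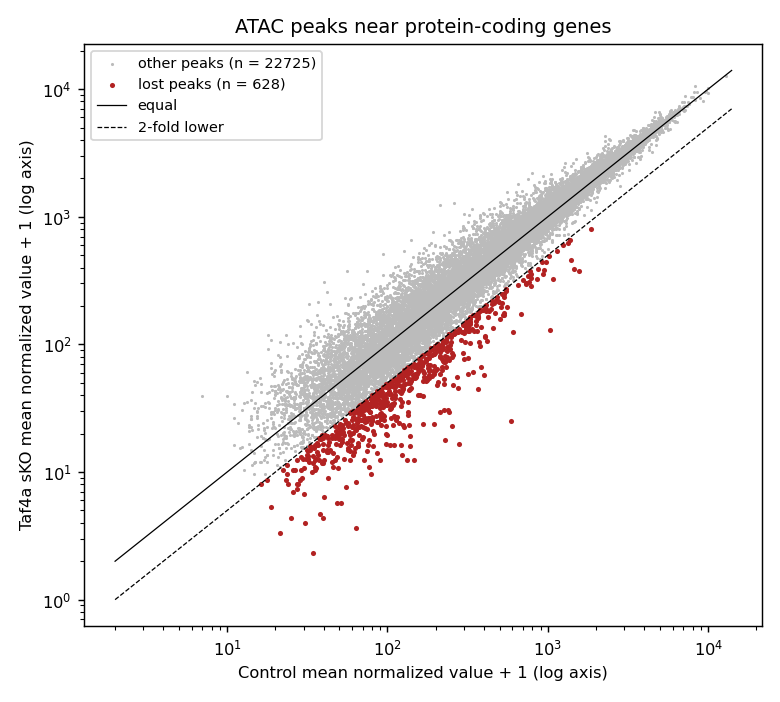
Mean normalized value + 1 of each peak near a protein-coding gene in control (x axis) and Taf4a sKO (y axis) MuSCs, both on log axes, with the 628 lost peaks in red, all others in grey, equality as a solid line and a 2-fold lower value as a dashed line. The lost peaks reach from control means of 15.3 to 1858, and those farthest below the dashed line have low to middle control values.

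In 617 of the 628 lost peaks every Taf4a sKO value was below every control value, a separation that 15.0% of all coding peaks showed. The other 11 included peaks at Angptl7, Calb1, Dhrs9, Dlgap4, Fgl1, Ndst3, Shisa6, Tacr1, Zfp984 and Znf704. limma called 612 lost peaks lower at an adjusted p under 0.05, where it called 13.9% of all peaks and 9.68% of coding peaks lower. The latter count, 2261 of 23353, rose to 5485 with median-of-ratios scaling and to 7251 with quantile normalization. The rule and this test used the same contrast, so neither count supports the choice. Among the 16 lost peaks that limma did not call were Rab6b, Aadacl4fm5, Necap2, Cplane2 and Srarp, at each of which 1 library stood apart.

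The peak of lowest ratio lay in Smyd4, which encodes a SET and MYND domain protein. It spans chromosome 11 from 75352339 to 75352927 in an intron, 4200 bp from the start site, and its values were 504, 509 and 753 in the controls and 19, 22 and 31 in Taf4a sKO MuSCs. Every control value was far above every Taf4a sKO value, with a ratio of -4.56 on the log2 scale. The promoter peak of the same gene, 50 bp from the start site, had 1639, 1468 and 1754 in the controls and 1754, 1627 and 1641 in Taf4a sKO MuSCs, so the genotypes overlapped there.

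Next came a peak in the coding exon of Krtap1-3, a keratin-associated protein of hair. It had 71, 64 and 53 in the controls and 4, 3 and 1 in Taf4a sKO MuSCs. Keratin-associated protein genes are near-identical copies of each other, and reads that map to several copies were removed, so its level is uncertain. The peak upstream of Rab6b, a small GTPase of Golgi traffic, had 479, 317 and 39 in the controls and 17, 12 and 18 in Taf4a sKO MuSCs. Its ratio was -4.07, and -4.58 without control 3. Upstream of Aadacl4fm5, a gene of the arylacetamide deacetylase-like family, the values were 358, 287 and 41 against 31, 7 and 12. Here too control 3 stood near the Taf4a sKO libraries.

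Other peaks among those of lowest ratio also had separate genotypes. An intronic peak of Cd8b, which encodes a chain of the T-cell co-receptor CD8, had 232, 244 and 278 in the controls and 22, 32 and 12 in Taf4a sKO MuSCs. A peak upstream of Mgll, the lipase that cleaves monoacylglycerols, had 38, 46 and 32 against 3, 3 and 4. At both, the controls were closely spaced. Thada had 138, 140 and 115 against 14, 14 and 6, and the gene models 4933407L21Rik, Gm28710 and Gm11232 had ratios of -3.88, -3.56 and -3.17.

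**Figure D2:**
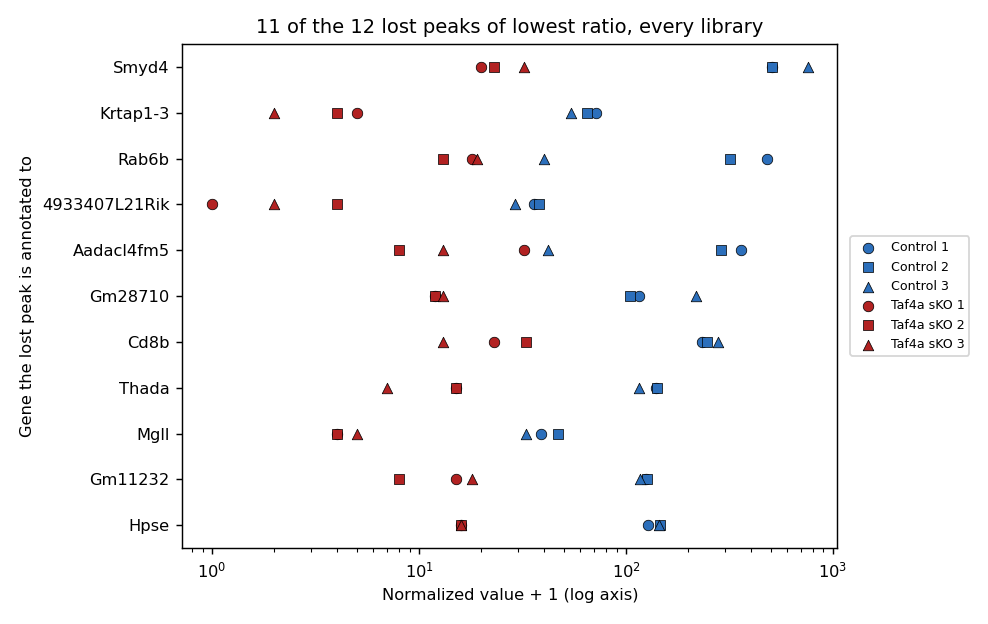
Normalized value + 1 (log axis) of 11 of the 12 lost peaks of lowest ratio in each of the 3 control (blue) and 3 Taf4a sKO (red) libraries, with the marker shape giving the replicate. Controls lie to the right of Taf4a sKO libraries in each row, and control 3 is close to the red points at Rab6b and Aadacl4fm5.

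The strongest peaks that were lost kept a sizeable value. The promoter peak of Abcb9, a lysosomal peptide transporter, is centred 67 bp from the start site on chromosome 5 (124095154 to 124096307) and had 1876, 1705 and 1994 in the controls and 848, 754 and 790 in Taf4a sKO MuSCs. It was the lost peak of highest control value, with a ratio of -1.22. Upstream of Isx, an intestinal homeobox factor, the values were 1356, 1264 and 1769 against 502, 322 and 346. At Grin2a, a subunit of the NMDA glutamate receptor, a peak 3246 bp wide had 1261, 1193 and 1749 against 398, 669 and 312. It was the widest lost peak and the only peak of that gene. An intronic peak of Gtf2a1, which encodes a precursor of the general transcription factor TFIIA, had 1193, 1059 and 1169 against 573, 523 and 511. The peaks at Galr3 (-2.05), described with its gene, Poldip3 (-1.06), Npl (-1.11) and Tmem229a (-1.05) completed the 8 of highest control value. None of the 8 had overlapping genotypes.

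Most lost peaks lay away from promoters. Of the 628, 109 (17.4%, 95% Clopper-Pearson interval 14.5 to 20.6, counting error only) were centred within 1000 bp of the annotated start site, against 51.6% of all coding peaks, and the median distance was 5166 bp against 821 bp. Read the other way, 0.905% of the 12049 coding peaks within 1000 bp were lost and 4.59% of the 11304 farther away. Coding peaks were also cut into 4 equal groups by the mean of all 6 libraries, a mean that the loss itself lowers. Among the weakest of these groups, 6.98% of those within 1000 bp and 8.74% of the others were lost. In the second group the shares were 1.19% and 2.41%, and in the third 0.152% and 0.789%. No peak of the strongest group was lost. By position, 324 lost peaks were centred inside the annotated gene (51.6%, against 61.1% of all coding peaks), 260 upstream (41.4% against 35.0%) and 44 downstream of it (7.01% against 3.87%). In the GENCODE annotation 280 centres were intronic (44.6% against 33.1%), 214 were between genes (34.1% against 27.9%), 58 in UTRs (9.24% against 23.4%), 53 in coding exons (8.44% against 10.6%) and 23 in non-coding exons (3.66% against 4.99%). At 1000 bp or more from a start site the shares were close, with 49.1% against 47.6% in introns and 36.0% against 34.4% between genes.

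Some lost peaks lay directly at a start site. The peak of Synpo2l, whose product is an actin-binding protein of striated muscle, is centred 1 bp from the start site and had 132, 138 and 131 in the controls and 68, 30 and 48 in Taf4a sKO MuSCs. At Wscd1, 9 bp away, the values were 125, 116 and 107 against 51, 56 and 54. Lsmem2, 19 bp away, had 81, 59 and 92 against 40, 23 and 23. The genotypes were separate at all 3. Both heparanase genes are also among the 6 lost peaks nearest a start site, together with the gene model Gm3468 at 47 bp, which had 136, 73 and 123 against 50, 41 and 36.

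The 2 heparanase genes were the whole of their family, and both lost peaks at and beyond the promoter. Hpse encodes the enzyme that cleaves heparan sulfate chains of the extracellular matrix, and Hpse2 encodes a relative that binds heparan sulfate. The promoter peak of Hpse had 297, 342 and 346 in the controls and 137, 149 and 159 in Taf4a sKO MuSCs. An intronic peak of Hpse had 126, 145 and 143 against 15 in each Taf4a sKO library, a ratio of -3.12. Of the 4 peaks of Hpse2, 3 were lost, with ratios of -1.03, -1.44 and -1.26, and the fourth had -0.59. This pair was picked out after its values were seen.

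A single peak was lost at 530 genes, 2 peaks at 39 genes, 3 at 4 genes and 4 at 2 genes. The 6 genes with 3 or more lost peaks were Eya2, Galr3, B3gnt7, Iyd, Hpse2 and Rxfp1. Peaks of 1 gene lie close together and are not independent. At Eya2, which encodes a phosphatase and transcriptional coactivator that acts with SIX-family factors in muscle development, all 4 peaks were lost. The Eya2 peak nearest the start site, at 245 bp, had a ratio of -1.43, and the intronic peak 4709 bp away had 99, 105 and 89 in the controls against 18, 18 and 19. The other 2 had ratios of -1.46 and -1.64.

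Around Galr3, a receptor for the neuropeptide galanin, 4 of 6 peaks were lost. The strongest lies downstream on chromosome 15 (79044697 to 79045483) and had 1448, 1477 and 1744 in the controls and 397, 273 and 452 in Taf4a sKO MuSCs. The farthest, 9830 bp away, had 446, 553 and 830 against 128, 123 and 119. The 2 peaks that were not lost had ratios of -0.47 and -0.24. In the same 2 Mb, lost peaks also lay at Csf2rb, Csf2rb2 and Il2rb, which encode cytokine receptor subunits, and at Sox10.

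At Rxfp1, the receptor for relaxin, all 3 peaks were lost. The strongest had 1053, 933 and 1231 in the controls and 325, 352 and 302 in Taf4a sKO MuSCs, and the one upstream had 133, 130 and 143 against 14, 25 and 28. B3gnt7, a glycosyltransferase of keratan sulfate synthesis, lost all 3 of its peaks, with ratios of -2.01, -1.52 and -1.04. Iyd, the deiodinase that recovers iodide from iodotyrosines, lost 3 of 5, the lowest at -2.81 and the next at -1.80, and the peaks not lost had -0.89 and -0.58. In all, 19 genes with 2 or more peaks lost every one of them, among them Pcdh15, Kcnc2, Slc24a2, Ednra, Casr and Tnr, and 145 genes lost their only peak.

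**Figure D3:**
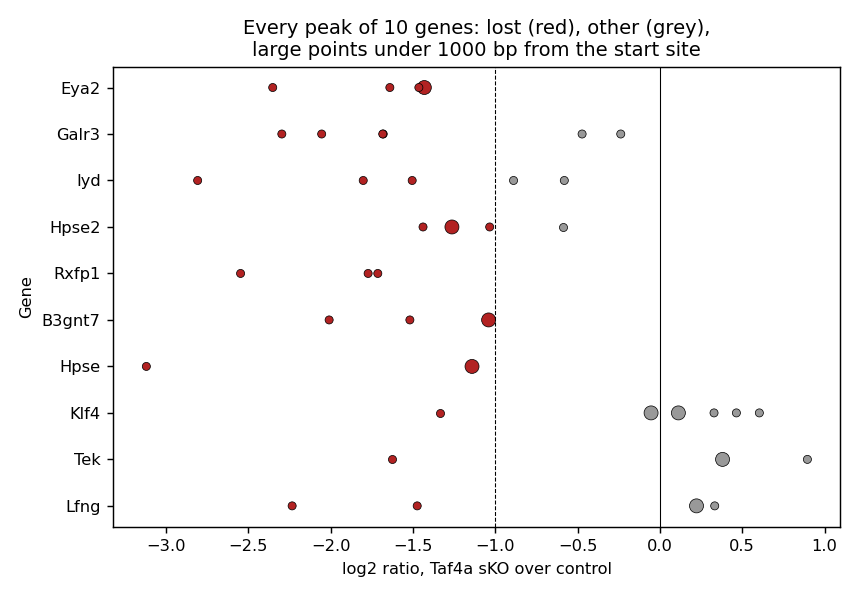
log2 ratio of Taf4a sKO over control (x axis) for every peak with a mean above 10 of the 6 genes with 3 or more lost peaks and of Hpse, Klf4, Tek and Lfng, one row per gene, with lost peaks in red, other peaks in grey and large points for peaks within 1000 bp of the start site. In Eya2, Rxfp1, B3gnt7 and Hpse each point is red, whereas the promoter points of Klf4, Tek and Lfng lie between -0.05 and 0.38.

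The other peaks of the same genes lay around no change. At 411 of the 575 genes there were 685 further peaks, with a median ratio of -0.01 against 0.07 for the 22040 peaks of other coding genes. Of the 685, 112 (16.4%) were below -0.5, against 5.37% for peaks of other genes, and 53 (7.74%) were above 0.5, against 12.7%. The members were chosen by this same ratio, so these shares are descriptive. At 307 genes the peak nearest the start site lay within 1000 bp and was not lost. Its median ratio was 0.02, with quartiles of -0.16 and 0.11, against 0.06 at other genes.

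At several regulatory genes a distal peak was lost beside a promoter peak that was not lost. Klf4, a zinc finger factor that restrains proliferation in many cell types, lost a peak 6307 bp downstream of its start site, with 243, 233 and 239 in the controls and 97, 95 and 90 in Taf4a sKO MuSCs. The Klf4 promoter peak had 4332, 4147 and 4831 against 4602, 4192 and 4031, with overlapping genotypes. Egr1, an immediate early factor, lost a downstream peak, with 1116, 816 and 1115 against 495, 544 and 428, and its promoter peak had a ratio of -0.21. At Lfng, a glycosyltransferase that modifies Notch receptors, 2 upstream peaks were lost, with -2.23 and -1.47. The Lfng promoter peak had a ratio of 0.22, with every Taf4a sKO value above every control value. At Tek, the receptor for angiopoietins, an intronic peak had 156, 141 and 107 against 65, 33 and 31. The neighbouring intronic peak of Tek had 225, 215 and 239 against 407, 449 and 410, all above the controls. Its promoter peak had 1209, 1033 and 1505 against 1631, 1658 and 1590, also all above the controls.

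A lost and a gained peak, with a ratio above 1, were found together at 5 genes: Ak1, Gm11214, Mrgprd, 4932438H23Rik and 4930583I09Rik. At Ak1, adenylate kinase 1 of muscle energy metabolism, the gained peak had 64, 85 and 85 in the controls and 205, 240 and 225 in Taf4a sKO MuSCs. Gained peaks made up 0.730% of the 685 and 3.16% of the peaks of other coding genes, a difference that was not tested.

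By symbol, 173 of the 575 genes fell into one of 31 families described by name patterns, and the rest had no family in common by this measure. Shares are of the genes with a peak above the minimum mean, and are read against 4.04% over all genes. Genes with more peaks have more chances to lose one: 1.71% of genes with 1 peak had a lost peak, 6.51% of those with 2 and 8.95% of those with 3 or more. The counts per family are small and carry no test, and a symbol pattern does not find every gene of a family.

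Ion channels had the highest share among families of at least 40 genes, with 15 of 186 (8.06%) and 1.64 peaks per gene. They included Kcnc2, Kcne5, Kcnf1, Kcnk2 and Kcns2 of the potassium channels, Cacna1b, Cacnb2 and Cacna2d3 of the voltage-gated calcium channels, the glutamate receptor genes Grin1 and Grin2a, and Ryr2, the calcium release channel of heart muscle. Kcnc2 lost both of its peaks, and the stronger had 703, 495 and 835 in the controls and 185, 208 and 120 in Taf4a sKO MuSCs. The peak of Kcne5 had 38, 47 and 30 against 7, 10 and 15. Solute carriers numbered 15 of 270 (5.56%). Slc12a1, the sodium-potassium-chloride cotransporter of kidney, had 86, 92 and 112 against 18, 18 and 21, and Slc2a12, a glucose transporter, had a ratio of -2.15.

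Genes matched by the pattern for G protein-coupled receptors numbered 13 of 227 (5.73%), and the pattern misses others with a lost peak, such as Casr, Vipr2, Prokr1, Gpbar1, Mrgprd and Opn5. Besides Galr3 and Rxfp1 they included Tacr1, Ednra, P2ry14, Adora3 and the olfactory receptor gene Olfr527, whose peak had 306, 307 and 404 in the controls and 51, 69 and 59 in Taf4a sKO MuSCs. Interleukins, chemokines and their receptors numbered 9 of 131 (6.87%). A peak 7660 bp upstream of Il12b, a subunit of interleukin 12, had 465, 348 and 388 against 53, 49 and 67, a ratio of -2.81. Of the 2 lost peaks at Cxcl13, a chemokine for B cells, the one of lower ratio had 21, 25 and 15 against 3, 1 and 3. Among CD antigens, 3 of 49 genes had a lost peak, namely Cd8b, Cd22 and Cd59a. Small GTPases numbered 9 of 151, one of which, Arl6ip4, is a binding partner and not a GTPase, and GTPase regulators 9 of 190, with the lower of 2 peaks at Rgs16 at -1.67 and Arhgef7 at -1.52. Arl4c of the small GTPases had 270, 278 and 347 against 80, 55 and 92.

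Matrix genes were near the share over all genes, with 6 of 122 (4.92%). The lowest ratio there was at Emilin1, an elastic fibre protein, in a coding exon with 253, 168 and 163 in the controls and 21, 19 and 28 in Taf4a sKO MuSCs. The stronger loss at Tenm1 of the teneurins had 119, 108 and 96 against 21, 25 and 21. Cadherins and protocadherins numbered 3 of 51, and both peaks of Pcdh15, a protocadherin of hair cells in the inner ear, were lost, the stronger with 377, 345 and 383 against 49, 33 and 48. Matrix proteases and their inhibitors numbered 3 of 75, with Serpinb7 at -2.84, and guidance genes 2 of 52, Ntn5 and Robo4. Phosphatases numbered 4 of 51, Eya2 among them, and receptor tyrosine kinases 2 of 36, Tek and Ephb2, a pattern that misses Mst1r, which also had a lost peak. No integrin (20 genes) and no cytochrome P450 (36 genes) had a lost peak.

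The families of at least 40 genes with the lowest shares were the 4 given next. Zinc finger proteins numbered 6 of 392 (1.53%), ubiquitin ligases and deubiquitinases 4 of 310 (1.29%), kinesins and dyneins 1 of 75 (1.33%), and homeobox, forkhead, Sox, T-box and Pax factors 3 of 189 (1.59%). The last pattern matched Foxp2, Sox10 and Pou2af1, the last of which is a coactivator, and misses homeobox genes with a lost peak such as Isx and Pknox1. Zbtb37 had 367, 292 and 298 in the controls and 92, 63 and 76 in Taf4a sKO MuSCs, and Trim11 had a ratio of -1.64. Zinc finger genes had 1.34 peaks each, fewer than the mean gene, whereas the homeobox group had 2.48.

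Other factor families were represented by few genes. Basic helix-loop-helix and Mef2 factors numbered 4 of 93, one of which, Mycbpap, is a binding protein, and Ascl3 had the lowest ratio, -2.21. Ets, Runx, Gata, Irf and related factors numbered 3 of 61 (Elf3, Etv6 and Nfat5), Klf, Sp and Egr factors 2 of 29, nuclear receptors 2 of 47 (Rarb and Nr3c2), and AP-1, Atf, Creb and Cebp factors 2 of 54, Nfe2l1 and the binding protein gene Atf7ip. Of the Nfi, Tead, Smad and Tgf-beta family 3 of 64 had a lost peak. Bmp2, a bone morphogenetic protein, had 139, 125 and 115 in the controls and 18, 25 and 21 in Taf4a sKO MuSCs, a ratio of -2.51, and Tgfb3 had -1.23. Wnt pathway genes numbered 2 of 66, Wnt2 and Lrp2bp, of which Lrp2bp binds a receptor of another pathway, and the Notch pathway 1 of 34, Lfng. Myosins numbered 2 of 43, Myl4 and Myo1g. Tmem genes numbered 5 of 185 and Fam genes 4 of 134.

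**Figure D4:**
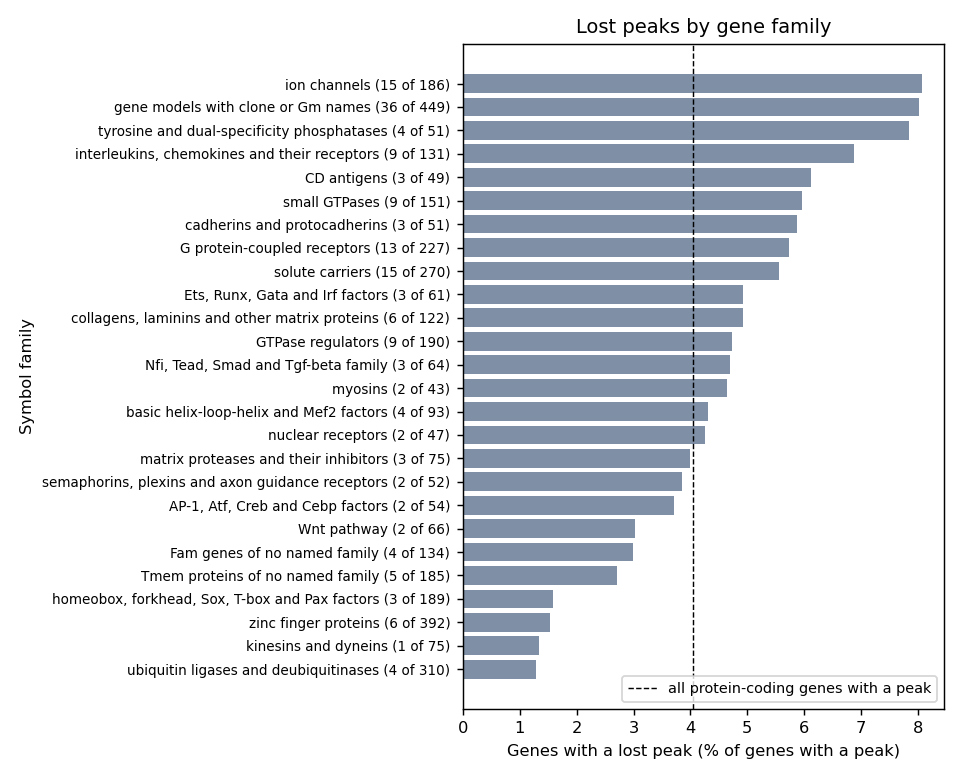
Share of genes with a peak above the minimum mean that have a lost peak (x axis, percent), for each symbol family of at least 40 such genes, with the counts beside the name and the 4.04% of all protein-coding genes as a dashed line. Ion channels (8.06%) and gene models (8.02%) have the longest bars, and ubiquitin ligases (1.29%) the shortest.

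Gene models with clone or Gm names numbered 36 of 449 (8.02%). Of these, 5 lay in the same 2 Mb of chromosome 10 and each lost a peak within 362 bp of its start site: Gm19402, Gm18596, Gm7137, Gm19668 and Gm2696. Gm19402, from 77690126 to 77691074, had 839, 733 and 769 in the controls and 346, 218 and 295 in Taf4a sKO MuSCs. Gm18596 had 315, 296 and 301 against 154, 71 and 85. Each of the 5 had separate genotypes, and their ratios lay between -1.71 and -1.30. Such models can be copies of each other, and reads that map to several copies were removed. Of families picked out after their values were seen, both trefoil factor genes with a peak (Tff1 and Tff2) and 2 of 3 taste receptor genes of type 1 (Tas1r1 and Tas1r3) had lost peaks. Xkr genes numbered 2 of 5, keratins and keratin-associated proteins 3 of 17, ribosomal proteins 5 of 70, proteasome subunits 3 of 35 and RNA polymerase II and Mediator subunits 3 of 40.

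Genes that mark MuSCs were not among the lost ones. All 15 markers of the list had a peak and none had a lost peak, a count too small to set apart from the 4.04% of all genes. Summed over the peak nearest each start site, they came to 24906, 21635 and 26561 in the controls and 25108, 23755 and 23649 in Taf4a sKO MuSCs. Pax7 was the highest, with 4533, 3128 and 3729 in the controls and 3084, 2923 and 3026 in Taf4a sKO MuSCs, all below the controls. Without Pax7 the sums were 20373, 18507 and 22832 against 22024, 20832 and 20623 and overlapped. Of the 15 genes 5 were lower in Taf4a sKO MuSCs. Of the 11 myofibre markers none had a lost peak, and their sums were 8687, 7829 and 9605 against 9913, 8464 and 8667, with Mylpf the highest. Both lists overlapped between genotypes. Without Mylpf the myofibre sums were 4412, 4096 and 4835 against 4751, 3963 and 4275 and also overlapped. Of the 11 myofibre genes 6 were lower in Taf4a sKO MuSCs.

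Markers of other cell types were measured as well. Endothelial markers had a peak at 9 of 13 genes, with sums of 2803, 2820 and 3525 in the controls and 4524, 4589 and 4659 in Taf4a sKO MuSCs. Tek, the highest of them (1249 against 1626), was the only one with a lost peak, and Emcn, Sox17, Tie1 and Vwf had no peak. Fibro-adipogenic markers had a peak at 10 of 11 genes and sums of 2654, 2404 and 2936 against 3435, 3342 and 3273, with Col1a1 the highest and no peak at Ly6a. In both lists every Taf4a sKO sum was above every control sum, but single genes carried much of this. Of the 9 endothelial genes 1 was lower in Taf4a sKO MuSCs. Egfl7 had the largest endothelial difference (means of 553 and 1554), at a peak 6715 bp from the start site. The nearest peaks of Pecam1 and Cdh5 lay 8013 and 10189 bp away. Without Egfl7 the sums were 2357, 2256 and 2877 against 3045, 3068 and 2997 and still did not overlap. Without Col1a1 (1201 against 1851) the fibro-adipogenic sums were 1411, 1383 and 1597 against 1495, 1526 and 1476 and overlapped, and 5 of the 10 genes were lower in Taf4a sKO MuSCs. Haematopoietic markers had a peak at 6 of 15 genes, with sums of 4091, 3998 and 4624 against 4675, 4345 and 4389, which overlapped. Of these 6 genes 3 were lower in Taf4a sKO MuSCs. Vav1 was the highest (3058 against 3128) and made up most of these sums, and Ptprc, Cd3e and Itgam were among those with no peak. Smooth muscle markers had a peak at 6 of 7 genes, with sums of 4447, 4310 and 4773 against 5229, 4837 and 4994, Acta2 the highest and no peak at Rgs5, and here too the sums did not overlap. Without Acta2 (1728 against 2147) they were 2712, 2665 and 2968 against 2964, 2754 and 2902 and overlapped. Schwann cell markers had a peak at 5 of 6 genes, with sums of 3374, 3141 and 3995 against 3872, 3751 and 3698. S100b had no peak, and Sox10 was the one with a lost peak. Before the sort for integrin alpha 7 or the Pax7 reporter, cells with SCA1, CD45 or CD31 were removed. This step is aimed at endothelial, haematopoietic and fibro-adipogenic cells. The study reanalysed the sorted cells and reports a purity well short of complete. The part of other cells in the lost peaks was not tested.

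The lists of pathways that bear on the study are short, and their counts are read against the 4.04% of all genes, from which none of them can be set apart. TFIID and the NSL complex had no lost peak at 26 genes with a peak, and neither had the 20 genes of the dystrophin-associated complex and sarcolemma. Of 39 genes of MuSC quiescence and activation, 2 had a lost peak, Tek and Tenm4. The peak of Tenm4 had 39, 25 and 26 in the controls and 12, 11 and 12 in Taf4a sKO MuSCs. Of 56 chromatin regulators, 3 had one, the histone deacetylases Hdac4 and Hdac9 and the lamin gene Lmnb2. At Lmnb2, the lost intronic peak had 636, 738 and 710 against 422, 207 and 326, while the promoter peak had 464, 458 and 480 against 490, 576 and 560. The lost peak of Hdac9 had 50, 55 and 64 against 12, 26 and 21. At Hdac4 the lost upstream peak had 31, 34 and 49 against 21, 15 and 19, and its promoter peak was above every control value in each Taf4a sKO library (796, 730 and 1052 against 1134, 1146 and 1128).

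The choice did not use sequence. Motifs were sought in the central 300 bases of every peak whatever its width, so the window reached beyond narrower peaks. The lower quartile of width was 237 bp in lost peaks and 472 bp in coding peaks. CAGCTG was present on either strand in the central 300 bases of 278 lost peaks (44.3%), against 23.4% of all 23353 coding peaks. Since lost peaks lie farther from start sites, the peaks at 1000 bp or more were also compared, and the shares were 44.9% and 29.6%. Within 1000 bp they were 41.3% and 17.6%, and in the weakest of the 4 groups by the mean of all 6 libraries 45.3% and 29.5%. At least 2 copies were found in 14.3% of lost peaks and in 4.14% of coding peaks. The sequences printed for Galr3 and Aadacl4fm5 hold 2 copies each and that for Isx 1.

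The share with CAGCTG changed with the ratio, also outside the lost peaks. Among coding peaks at 1000 bp or more it was 41.0% at ratios below -2, 52.3% from -2 to -1.5, 42.8% from -1.5 to -1 and 41.2% from -1 to -0.5. It was 30.5% from -0.5 to 0 and 24.0% in peaks at 1 and above. Among the 10 E-box forms CAGCTG had the highest share in lost peaks as a whole, but not within 1000 bp of a start site, where CACCTG was in 43.1% of lost peaks against 19.3% of coding peaks. At 1000 bp or more CACCTG was in 29.5% against 20.7%. CAGATG was in 27.9% of all lost peaks against 16.9% of coding peaks, and CACGTG in 3.66% against 6.82%. The comparison of E-box forms and of ratio bins was added after the share of CAGCTG had been seen.

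Motifs common in promoters had lower shares. GGGCGG was in 13.7% of lost peaks against 42.9% of coding peaks, and at 1000 bp or more in 9.25% against 20.3%. CCGGAAG was in 1.75% against 9.27%, and at 1000 bp or more in 1.54% against 4.05%. TGANTCA was in 15.4% against 12.7%, but at 1000 bp or more in 17.5% against 21.4%, and it reached 36.8% in peaks with a ratio of 1 and above. TGTGGT was in 24.2% against 15.1%, AGGTCA in 20.5% against 14.5%, TAATTA in 5.10% against 2.59%, TGTTTAC in 3.18% against 2.42% and TGACG in 14.5% against 23.4%. At 1000 bp or more these gaps were smaller, with 25.8% against 20.1%, 22.7% against 19.2%, 5.78% against 4.10%, 3.85% against 3.26% and 14.6% against 17.4%, in the same order. CCAAT, the box bound by NF-Y, was in 29.6% against 29.3%, and at 1000 bp or more in 30.1% against 31.2%. For GGAATG (16.2% against 14.2%), TGGGAA (27.2% against 23.9%) and AGATAA (8.28% against 6.31%) the order also turned at 1000 bp or more, where the shares were 16.4% against 19.0%, 27.6% against 29.2% and 8.86% against 9.48%. A match is a run of letters and not a bound site.

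**Figure D5:**
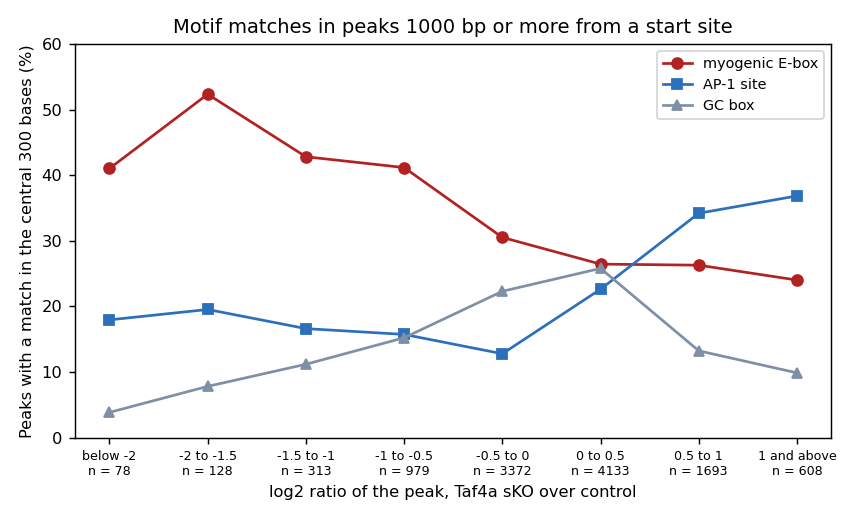
Share of coding peaks at 1000 bp or more from a start site that hold a match in their central 300 bases (y axis, percent), by log2 ratio of the peak (x axis), for the myogenic E-box CAGCTG, the AP-1 site TGANTCA and the GC box GGGCGG, with the number of peaks under each bin. The E-box share is between 41.0% and 52.3% in the 3 bins of lost peaks and 24.0% in the bin of highest ratio, where the AP-1 share is 36.8%.

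The base composition of lost peaks was also compared within distance classes. The median GC content was 51.7% in lost peaks and 56.8% in all coding peaks, and at 1000 bp or more 50.5% and 52.2%, whereas within 1000 bp it was 61.7% in lost peaks and 60.6% in coding peaks. A CpG observed over expected ratio above 0.6 in the central 300 bases, the usual mark of CpG-rich promoters, was found in 72 lost peaks (11.5%) against 48.6% of coding peaks. Among peaks within 1000 bp of a start site, 45.0% of the lost ones passed it against 78.4%, and at 1000 bp or more 4.43% against 16.7%.

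Lost peaks lay on all chromosomes analysed, from 1.35% of coding peaks on chromosome 18 and 1.36% on chromosome 13 to 3.71% on chromosome 1. Within 10000 bp of another lost peak lay 99 of them (15.8%), and within 100000 bp 169 (26.9%). Windows of 2 Mb with 5 or more lost peaks numbered 16 and held 92 peaks. The window with the most held 8 of 112 coding peaks on chromosome 15, around Galr3. The highest share was on chromosome 17 from 30000001 to 32000000, where 6 of 33 coding peaks (18.2%) were lost, at Tff1, Tff2, Tmprss3, Pknox1 and Cryaa. Both Tff1 peaks were lost, with 88, 91 and 54 in the controls and 7, 11 and 8 in Taf4a sKO MuSCs at the farther one.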

How the data were processed

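MuSCs were profiled by ATAC-seq in 3 control and 3 Taf4a sKO samples, grouped by the sample labels. Per the labels and methods, the authors trimmed reads (Trimmomatic 0.39), aligned them to mm10 (STAR 2.7.11b), removed duplicates (Picard 3.1.1), spliced, multi-mapping, ribosomal and mitochondrial reads, called peaks per sample with MACS without an input control, unified them and counted reads. The submitters' notes also name featureCounts and DESeq. The deposited score is this count multiplied by a factor for depth and rounded. The size of that factor is not given in the sources used here. A shift for the Tn5 cut is not given in the sources used here. Distances and genes are the authors' annotation, and coordinates are as deposited.

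The members, families, lists and tests were chosen with earlier results of these data known. The 2 thresholds follow the study's methods, with a pseudocount of 1. limma 3.58.1 (R 4.3.3) with trend and robust moderation was fitted to log2(value + 1) of all 75384 peaks with a mean above 10, with Benjamini-Hochberg adjustment, and was tested on simulated data. Shares were computed with Python 3.11.15, pandas 2.3.3 and numpy 2.4.6. Named peaks are the 12 of lowest ratio, the 8 of highest control mean, the 6 nearest a start site, those of genes with 3 or more, the 3 on each side of the limit, those in the gene lists, and the 2 of lowest ratio per family described. Others named, such as those at which a library stood apart or the genotypes overlapped, the gene models on chromosome 10, the members listed per family and the second group of families, were chosen after their values were seen. GENCODE vM21 gave features at peak centres. The largest peak end on each chromosome was within the GRCm38 length. The central 200 bases of Abcb9 and 4933407L21Rik touch a UTR and were replaced by the next peak in order. Alternatives covered minimum mean, ratio limit, pseudocount, scaling, distance limit, replicate block and each library left out. With 3 libraries per genotype precision is limited, and the study calls them biological replicates; no sequencing batch is given. Some items that these rules name are not reported here.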

Additional observations from a re-analysis of the deposited data

How the results depend on the processing

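With a ratio limit of -1.5 in place of -1 the number of lost peaks fell to 230, all of them among the 628. No other alternative moved it by over 1.5 times: a minimum mean of 50 left 432, a pseudocount of 5 left 556, and median-of-ratios scaling and equal total signal gave 776 and 837, each holding all 628. Scaling moved the median ratio of all peaks from 0.10 to -0.01, and that of coding peaks from 0.06 to -0.05. Leaving out each library in turn gave 556 to 706 lost peaks at 507 to 640 genes, 588 to 612 of the 628 called by limma, and 15.8% to 18.2% within 1000 bp of a start site. The last share was 13.4% at 500 bp and 32.0% at 3000 bp. Deviations of same-numbered samples from their group means had correlations across peaks of 0.11, -0.12 and -0.03. Those of other pairs ran from -0.12 to 0.15. With 3 libraries per genotype these values cannot decide whether samples of the same number were paired. With the replicate block limma called 619, and under the other settings 601 to 615. The 2 alternatives added after the data were seen gave 619 without peaks at which a library stands apart and 617 without overlapping genotypes. Of 816 alternative ratios of 102 named lost peaks none changed sign, 799 stayed within the spread between replicates, and 40, at 18 peaks, rose above -1. At Lrp2bp (122, 227 and 150 in the controls, 4, 5 and 107 in Taf4a sKO MuSCs) the ratio was -2.08, and -4.93 without Taf4a sKO 3. Over all peaks limma called 10476 lower and 21102 higher. Median-of-ratios scaling gave 16943 and 19090, and quantile normalization 18897 and 18700. For coding peaks the lower calls rose from 2261 to 5485 and 7251, and the higher calls went from 4150 to 3871 and 3613, or 7333 without control 3. The reads behind a value are not known here, so no counting interval is given for the low values.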
